A study of Mus musculus with 28 samples.

Results

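The genes of the cell division cycle and of DNA replication were followed through 28 whole lungs of newborn mice, 1 animal per microarray. They were taken from a written list of 42 genes, 26 that act in mitosis and 16 that act in S phase, and a gene was kept where the deposited table held a row annotated with its symbol alone. By that rule 40 of the 42 were measured, 25 mitotic and 15 S-phase genes, among 22180 genes in all. Ccnb1, a mitotic cyclin, had no such row, and the row of Ccne2, an S-phase cyclin, was shared with another gene. Rrm2 had more than 1 row and was read from its brightest.

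The lungs were collected on postnatal day 0 in 2 arms. In one arm pregnant females had received 0.5% N-acetyl cysteine (NAC), an antioxidant, throughout pregnancy; the pups were DKO+NAC (4 lungs), NRas-KO+NAC (3), HRas-KO+NAC (3) and Control+NAC (4). In the untreated arm they were DKO (5), NRas-KO (3), HRas-KO (3) and Control (3). DKO animals lack both HRas and NRas, which carry growth factor signals into the cell, and the series title describes them as dying of severe respiratory distress. The sources used here do not give the alleles, the strain or the genotype of the mothers. The treatment note names only 3 samples as exposed to NAC whereas the labels of 14 samples carry it, and the 3 HRas-KO+NAC samples carry it in the source label but not in the title; groups follow the source labels. Nras itself averaged 7.75 ± 0.23 (SD, n = 4) in DKO+NAC, 7.70 ± 0.12 in NRas-KO+NAC, 8.29 ± 0.11 in HRas-KO+NAC and 8.33 ± 0.12 in Control+NAC lungs. In the untreated arm it averaged 7.63 ± 0.13 in DKO, 7.69 ± 0.10 in NRas-KO, 8.26 ± 0.13 in HRas-KO and 8.24 ± 0.14 in Control lungs. One DKO+NAC lung, replicate 4, stood at 8.08, near the lowest Control lung at 8.07. The other targeted gene is not analysed here. Sftpc, the surfactant protein that defines alveolar type II cells, had group means between 13.07 and 13.14 in all 8 groups. These means lie near the highest value of the arrays, 13.55, and do not show that type II cell content was equal.

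All levels are log2 intensities after robust multi-array averaging (RMA), so a difference of 1 is a doubling, and levels are compared between lungs for 1 gene at a time. Differences were tested with limma across all 22180 genes, with Benjamini-Hochberg adjustment over all of them, and a gene was called at an adjusted p under 0.05. The spread was pooled over all 28 arrays, and the small number of arrays per group limits the precision. The comparisons share arrays with each other and are not independent. The share of all genes without overlap between groups is given only for Control+NAC against Control and for DKO+NAC against Control+NAC. In the other comparisons a lack of overlap is shown without that background and only describes the values.

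A cell that enters division first builds its replication machinery and copies its DNA in S phase. It then condenses its chromosomes and pulls them apart on a spindle in mitosis. Promoters of S-phase genes are classically bound by E2F factors. Those of mitotic genes often carry a cell cycle genes homology region and CCAAT boxes, bound by the DREAM and MuvB complexes and by NF-Y. In the lung around birth, fibroblasts, endothelial cells and epithelial cells still divide while the airspaces mature. In whole tissue, fewer dividing cells and less RNA of these genes per cell cannot be told apart.

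The 2 classes differed in their promoter letters. The letters were picked for motifs classically described in such genes, so the difference is no independent result. RefSeq promoters of mouse build GRCm38.p6, from 250 bases before to 50 after the start, were matched for 33 of the 42 genes, with 35 promoters. The letters searched on both strands were TTTGAA for the homology region, CCAAT for the CCAAT box, and TTCCCGC or TTGGCGC for E2F. TTTGAA stood in 16 of 21 mitotic promoters (76.2%), in 1 of 14 S-phase promoters (7.14%) and in 17.9% of all 32851 promoters. E2F letters stood in 3 of 21 mitotic promoters (14.3%), in 8 of 14 S-phase promoters (57.1%) and in 6.81% of all promoters. CCAAT stood in 85.7%, 64.3% and 37.4% of the same sets. Prc1 and Mcm7 each had 2 promoters, counted separately. Letters of different motifs shared bases in 2 of the 35 promoters.

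Promoters of 3 mitotic genes are shown because they carry these letters and recur below, each from 180 bases before to 20 after its start, with the letters of a motif on either strand in capitals. Cdk1, the kinase that drives cells into mitosis, lies at chr10:69352893-69353092 on the minus strand, and it holds 2 TTTGAA, 2 CCAAT and 1 E2F match. Kif11, a motor that separates the spindle poles, lies at chr19:37376202-37376401 on the plus strand and holds 1 TTTGAA and 1 CCAAT. Ube2c, which charges ubiquitin for the anaphase-promoting complex, lies at chr2:164769749-164769948 on the plus strand and holds 1 TTTGAA and 3 CCAAT.
Cdk1: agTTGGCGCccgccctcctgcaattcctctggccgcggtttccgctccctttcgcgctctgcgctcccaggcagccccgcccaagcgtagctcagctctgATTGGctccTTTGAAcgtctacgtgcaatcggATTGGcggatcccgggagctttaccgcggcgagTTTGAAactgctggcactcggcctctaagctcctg
Kif11: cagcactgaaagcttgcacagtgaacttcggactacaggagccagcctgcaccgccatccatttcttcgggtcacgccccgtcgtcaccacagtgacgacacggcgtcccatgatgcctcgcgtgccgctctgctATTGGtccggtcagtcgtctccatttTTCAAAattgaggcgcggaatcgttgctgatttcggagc
Ube2c: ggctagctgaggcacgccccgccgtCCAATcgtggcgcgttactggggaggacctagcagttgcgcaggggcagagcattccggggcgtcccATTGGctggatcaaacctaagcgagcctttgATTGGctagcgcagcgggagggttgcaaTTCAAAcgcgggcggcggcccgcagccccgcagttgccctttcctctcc

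Promoters of 3 S-phase genes are shown for contrast, cut in the same way. Mcm6, a subunit of the replicative helicase, lies at chr1:128359686-128359885 on the minus strand and holds 2 E2F matches, 2 CCAAT and no TTTGAA. Rrm1, the large subunit of ribonucleotide reductase, lies at chr7:102441515-102441714 on the plus strand and holds 1 E2F match, 2 CCAAT and no TTTGAA. Pcna, the sliding clamp of DNA polymerase, lies at chr2:132253161-132253360 on the minus strand and holds 1 CCAAT and neither of the other letters. A match is a description of letters, not evidence of a bound site.
Mcm6: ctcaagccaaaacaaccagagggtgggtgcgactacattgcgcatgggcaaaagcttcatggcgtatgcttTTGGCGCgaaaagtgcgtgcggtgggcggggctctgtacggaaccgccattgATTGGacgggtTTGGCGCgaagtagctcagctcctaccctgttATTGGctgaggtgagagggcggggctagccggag
Rrm1: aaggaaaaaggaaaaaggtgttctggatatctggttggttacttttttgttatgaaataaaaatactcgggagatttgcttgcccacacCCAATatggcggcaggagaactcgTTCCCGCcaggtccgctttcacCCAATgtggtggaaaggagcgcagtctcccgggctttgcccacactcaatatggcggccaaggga
Pcna: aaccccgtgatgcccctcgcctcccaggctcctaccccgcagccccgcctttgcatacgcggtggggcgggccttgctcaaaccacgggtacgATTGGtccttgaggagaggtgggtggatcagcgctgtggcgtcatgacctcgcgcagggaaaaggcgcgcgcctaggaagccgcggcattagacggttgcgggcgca

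The genes moved together from lung to lung. With each gene's group means removed, pairs of mitotic genes had a median Pearson r of 0.61 over the 28 lungs, and 299 of 300 pairs were positive. Pairs of S-phase genes had a median r of 0.41 (99 of 105 positive), and pairs across the classes 0.47 (368 of 375 positive). The r of a gene with the mean of the other members was over 0.5 for 34 of the 40 genes, against 5.18% of all other genes. Such r values share the same arrays and describe these lungs. The tightest were Top2a (DNA topoisomerase of chromosome condensation), Kif11, and Cenpf (a kinetochore protein), each at 0.92. The loosest were Ccne1 at 0.32, a cyclin of S-phase entry, Mcm7 at 0.34, another helicase subunit, and Cdc20 at 0.37, an activator of the anaphase-promoting complex.

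Mitotic genes also varied more. Their median SD within groups was 0.27 log2 units, against 0.20 for S-phase genes and 0.17 for all genes. Ccna2, the cyclin of S phase and early mitosis, and Cdk1 each spanned 2.17 log2 units over the 28 lungs, Ndc80, which fastens kinetochores to microtubules, 2.09, and Ccnb2, a mitotic cyclin, 2.00. Cdc6, which loads the helicase at origins, spanned 0.55. Birc5, Cdc25c and Cdc6 averaged 4.81, 4.75 and 4.61, under the median row of the arrays.

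The mean of the members placed whole lungs apart. Each gene was set to 0 at its mean over the 28 lungs, and the deviations were averaged over each class. Replicate 1 of DKO+NAC was lowest, at -0.61 for mitotic and -0.33 for S-phase genes, with 1 of 40 genes above its own mean. Replicate 1 of Control+NAC was highest in mitotic genes, at 0.62, with S-phase genes at 0.30 and 39 of 40 genes above their mean. Replicate 3 of NRas-KO had all 40 above their mean, at 0.38 for mitotic and 0.31 for S-phase genes. The S-phase mean minus the mitotic mean was 0.28 in that DKO+NAC lung, the highest of the 28, and -0.32 in that Control+NAC lung, the lowest. Mitotic class means varied more between lungs (pooled SD within groups 0.24, against 0.15), so this difference by itself shows no shift between phases.

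**Figure D1:**
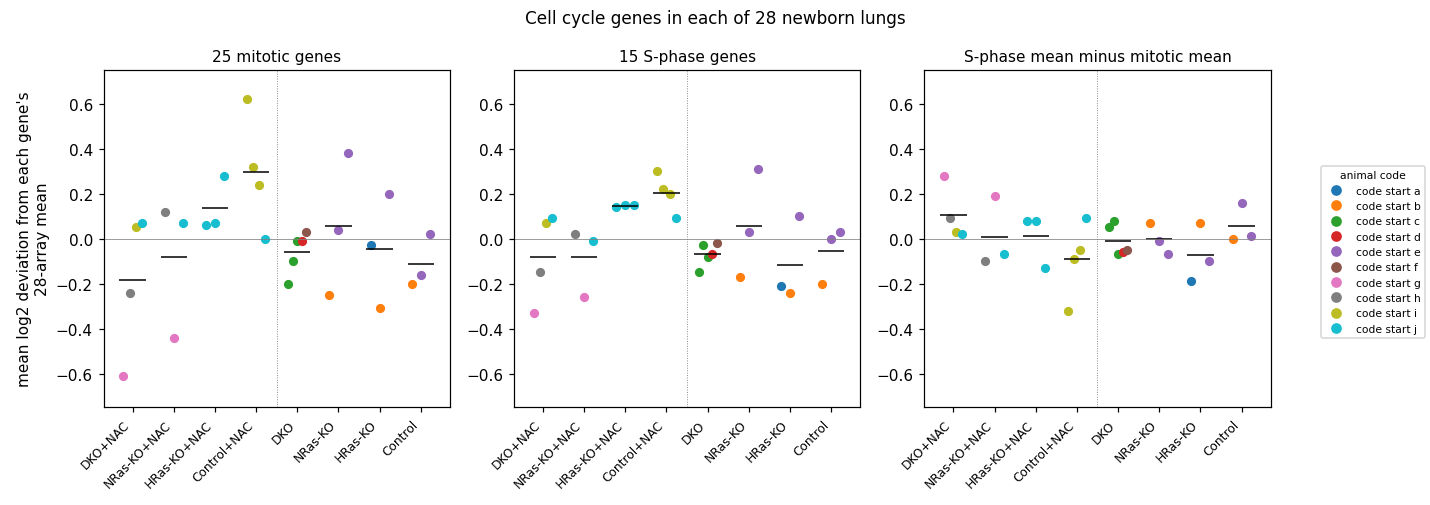
Mean log2 deviation of the 25 mitotic genes (left), the 15 S-phase genes (middle) and their difference (right) for each lung, by group on the x axis; a point is 1 lung, a bar its group mean, and the colour the start of the animal's code. Control+NAC lungs average 0.29 for mitotic genes and DKO+NAC lungs -0.18, with wide spread in both.

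Member means are given here also by how the animal codes begin. The start of the code may stand for a litter or a collection, but the labels do not say. Code starts are lettered a to j here. The 3 lungs of start b, from NRas-KO, HRas-KO and Control, were all low in mitotic genes, between -0.31 and -0.20. The 5 lungs of start e, from the same genotypes, lay between -0.16 and 0.38. Under NAC the 2 lungs of start g, 1 DKO+NAC and 1 NRas-KO+NAC, were the lowest of the series at -0.61 and -0.44. The 4 lungs of start i, 3 Control+NAC and 1 DKO+NAC, lay between 0.05 and 0.62, and the 6 lungs of start j, from all 4 genotypes, between 0.00 and 0.28. The 2 lungs of start h, from different genotypes, stood apart at -0.24 and 0.12. Starts b and g were thus narrow, and starts e, h and i wide. Over all 22180 genes, lungs of different groups that shared a start had a mean r of 0.146 between their deviations (28 pairs), and those that did not had -0.035. Untreated DKO lungs shared no start with another group, and no start spanned both arms, so code start cannot be told apart from genotype in comparisons with untreated DKO, nor from NAC.

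**Figure D2:**
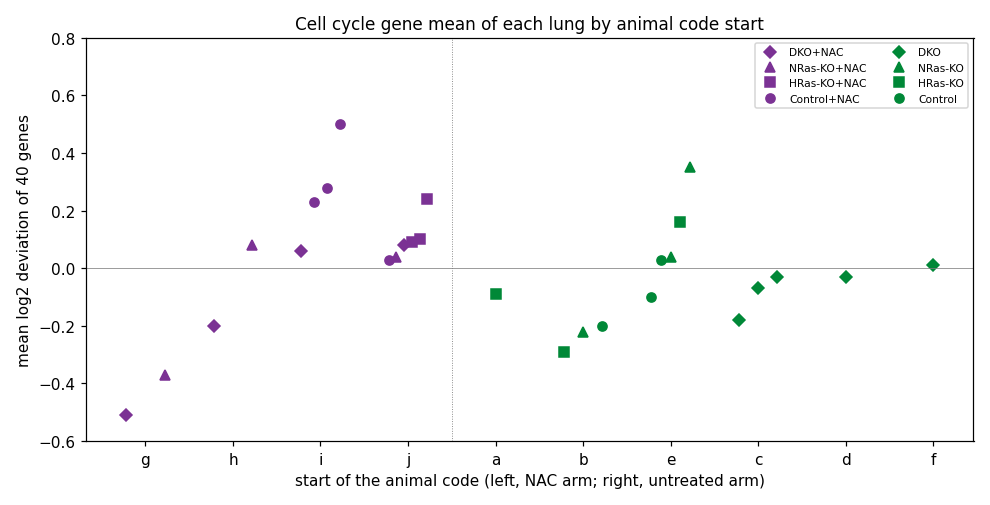
Mean log2 deviation of the 40 genes (y axis) for each lung by the start of its animal code (x axis), with the NAC arm to the left of the dotted line and the untreated arm to the right; marker shape gives the genotype. Start g is lowest at -0.51 and -0.37 and start b spans -0.29 to -0.20, whereas start h spans -0.20 to 0.08, start e -0.10 to 0.35 and start i 0.06 to 0.50.

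Without NAC, none of the 40 genes passed the threshold in DKO against Control lungs, where 3.83% of all genes were called. At an unadjusted p under 0.05 there were 2 of 40, against 15.7% of all genes. The median difference was 0.06 for mitotic and -0.01 for S-phase genes, beside 0.02 for all genes. The smallest p was that of Rrm1. Rrm1 stood at 7.99, 8.13, 8.40, 8.20 and 8.33 in DKO lungs, against 7.48, 7.77 and 8.03 in Control lungs, a difference of 0.45 ± 0.15 (SE; limma adjusted p = 0.11). The lowest DKO lung lay just under the highest Control lung. Kif20a, a kinesin of cytokinesis, stood at 6.04, 6.03, 6.13, 6.23 and 6.32 in DKO lungs, against 5.91, 5.76 and 6.03 in Control lungs (0.25 ± 0.12, adjusted p = 0.29). Of the 6 Mcm helicase subunits 3 had positive estimates (Mcm4 at 0.11, Mcm5 at 0.25 and Mcm6 at 0.13) and 3 negative ones (Mcm2 at -0.16, Mcm3 and Mcm7), none of them called. Mcm3 stood at 6.0, 6.12, 5.73, 5.99 and 5.92 in DKO lungs, against 6.17, 6.33 and 6.25 in Control lungs (-0.30 ± 0.15, adjusted p = 0.33). The groups did not overlap for Mcm3, but the share of all genes without overlap is not given here. Mcm7 averaged 6.09 in DKO and 6.26 in Control lungs (-0.17 ± 0.10, adjusted p = 0.46).

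Against the single knockouts, 1 gene passed in each comparison. Rrm1 was 1.64-fold higher in DKO lungs than in HRas-KO lungs, which stood at 7.37, 7.32 and 7.81 (0.71 ± 0.15, adjusted p = 0.0062), and the groups did not overlap. That was 1 of 40 genes, where 5.63% of all genes were called and 3.3% called higher. Without replicate 2 of HRas-KO no member was called, with Rrm1 still between 0.62 and 0.87 with any 1 lung left out. Heart muscle markers moved with this comparison: the mean of 11 ran between -0.24 and 0.05 in DKO lungs and between 0.20 and 0.88 in HRas-KO lungs, and 5 of the 11 were called lower, among them Nppa, the atrial natriuretic peptide (-2.86 ± 0.79, adjusted p = 0.031). Their part in the Rrm1 difference was not tested. Mcm3 was lower in DKO lungs than in NRas-KO lungs, which stood at 6.21, 6.44 and 6.92 (-0.57 ± 0.15, adjusted p = 0.023), again with no overlap. That was 1 of 40 genes, where 4.95% of all genes were called and 1.75% called lower. No member was called there without replicate 2 of NRas-KO or replicate 3 of DKO, and 2 were called without replicate 1 of NRas-KO. Without replicate 3 of NRas-KO the 1 gene called was Rrm1, at 0.60 (adjusted p = 0.048), and Mcm3 stood at -0.37; with replicate 1 left out Mcm3 stood at -0.73. Replicates 2 and 3 of NRas-KO carried skin markers, with means of 1.54 and 0.72, against 0.03 to 0.28 in DKO lungs. Without those 2 lungs, which leaves 1 NRas-KO lung, the Mcm3 difference was -0.26. The 2 lungs were of code start e and the remaining one of start b. Skin markers and code start thus cannot be told apart there. Mcm3 was not called without the lungs high in skeletal muscle markers (-0.62, adjusted p = 0.17), or in a fit on the DKO and NRas-KO lungs only (adjusted p = 0.10). Rrm1 and Mcm3, both of S phase, thus had opposite signs in the same DKO lungs.

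Genes of other cycle lists are read against the same 3.83% of all genes called. Upstream, Ccnd1, the D-type cyclin that growth factor signals induce, was lower in DKO than in Control lungs at 7.85 against 8.88 (-1.03 ± 0.22, adjusted p = 0.0072). It was uneven across DKO lungs, from 6.85 to 8.39, and ran from 8.52 to 9.19 in Control lungs. Cdk2, the kinase of S-phase entry, was higher (0.40 ± 0.11, adjusted p = 0.045), and the other 5 of 7 genes on the list of D cyclins and G1 kinases were not called. That list also holds the phosphatase Cdc25a, which is counted among the checkpoint and repair genes as well. Of 42 further replication genes 3 were higher and none lower, namely Fen1, the flap nuclease (0.76 ± 0.20, adjusted p = 0.032), Prim2, the large primase subunit (0.62 ± 0.15, adjusted p = 0.015), and Orc2, of the origin recognition complex (0.47 ± 0.13, adjusted p = 0.033). The median of those 42 was 0.06. Of 25 genes on a list of brakes and quiescence genes, called brakes below, 2 were higher and none lower. These were the pocket protein Rbl2 (0.65 ± 0.14, adjusted p = 0.0072) and Lin54, the DREAM subunit that reads the homology region (0.47 ± 0.09, adjusted p = 0.0051). A list name does not fix the direction in which each of its genes acts. Of 8 genes listed as E2F and DREAM activators 1 was higher, the E2F partner Tfdp2 (0.63 ± 0.14, adjusted p = 0.012). The Cdk inhibitor Cdkn1a had 11.25 in DKO against 10.85 in Control lungs (0.39 ± 0.12, adjusted p = 0.057). None of 43 further mitotic genes or 17 checkpoint and repair genes passed, with 4 and 3 at an unadjusted p under 0.05, where 15.7% of all genes had one.

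Marker lists of other cells were set beside these values. The mean deviation of 9 erythroid markers ran between 0.18 and 0.74 in DKO lungs and between -0.26 and 0.17 in Control lungs, without overlap, and 1 of the 9, the embryonic globin Hbb-y, was called (1.15 ± 0.28, adjusted p = 0.019). That of 11 heart muscle markers ran between -0.24 and 0.05 in DKO lungs and between 0.07 and 0.25 in Control lungs, also without overlap and with none called. That of 13 skeletal muscle markers overlapped, between -0.15 and 1.28 in DKO lungs and between -0.06 and 0.64 in Control lungs, with none called. With group means removed, 3 of 16 lung markers and 1 of 9 skin markers had an r over 0.5 with the member mean. No erythroid, T cell, granulocyte, skeletal muscle, heart or liver marker did, against 5.18% of all other genes. Such r values leave out differences between groups. The part of these cells in the DKO values was not tested. The mean deviation of 12 thymus and T cell markers stayed between -0.10 and 0.17 in every lung of the series.

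In HRas-KO against Control lungs none of the 40 genes was called, where 0% of all genes were called and 0.857% had an unadjusted p under 0.05; none of the 40 did. The median was 0.10 for mitotic and -0.04 for S-phase genes, beside 0.01 for all genes; with 1 lung left out the medians ran from 0.00 to 0.25 and from -0.18 to 0.03. Gins2, of the GINS complex of the helicase, stood at 5.34, 5.32 and 5.69 in HRas-KO lungs, against 5.68, 5.65 and 5.70 in Control lungs (-0.23 ± 0.13). Rrm1 averaged 7.50 against 7.76, Pcna 8.32 against 8.55, and Plk1, a mitotic kinase, 6.65 against 6.43, all with an adjusted p of 1.0. Within code start e, mitotic genes were higher in the HRas-KO lung by a median of 0.30, with 24 of 25 above the Control lungs, and within start b they were lower by a median difference of -0.14, with 18 of 25 below.

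In NRas-KO against Control lungs none was called either, where 0% of all genes were called and 1.04% had an unadjusted p under 0.05. None of the 40 had such a p. The targeted gene Nras, at 7.69 in NRas-KO and 8.24 in Control lungs, was also not called. Estimates were positive for 36 of 40, with a median of 0.18 for mitotic and 0.11 for S-phase genes, beside 0.01 for all genes. With 1 lung left out the mitotic median ran from 0.00, without replicate 3 of NRas-KO, to 0.36, and the S-phase median from -0.02, without the same lung, to 0.24. Tpx2, a spindle assembly factor, stood at 6.35, 6.93 and 7.20 in NRas-KO lungs, against 6.34, 6.31 and 6.67 in Control lungs (0.38 ± 0.20). Ube2c stood at 6.96, 6.89 and 7.80 in NRas-KO lungs, against 7.03, 6.82 and 6.70 in Control lungs (0.37 ± 0.23). Replicate 3 was the highest NRas-KO lung for both, and the groups overlapped. Kif20a averaged 6.16 against 5.90 and Mcm3 6.52 against 6.25, and all 4 genes had an adjusted p of 1.0. Within start e the median mitotic difference was 0.32, with 24 of 25 genes higher, and within start b it was -0.07, with 9 of 25 higher. NRas-KO replicates 2 and 3 also carried skin and squamous epithelium markers, with means of 1.54 and 0.72 against -0.03 in replicate 1 and -0.10 to 0.07 in Control lungs. Without these 2 lungs, which leaves 1 NRas-KO lung, the median difference was -0.16 for mitotic and -0.09 for S-phase genes. The mean of 8 liver markers was 0.12, -0.30 and 1.34 in NRas-KO replicates 1, 2 and 3. It ran between -0.33 and 1.12 in Control lungs. The mean of 13 skeletal muscle markers was -0.06, 1.28 and -0.02 in the same 3 NRas-KO lungs. In Control lungs that mean ran between -0.06 and 0.64. The part of skin, liver and skeletal muscle in the difference was not tested.

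Control+NAC against Control lungs gave the most calls, 6 of 40 genes, all higher, where 13.5% of all genes were called and 7.86% called higher. Estimates were positive for 34 of 40, with a median of 0.44 for mitotic and 0.27 for S-phase genes, beside 0.02 for all genes. Ndc80 stood at 6.98, 6.38, 6.48 and 6.15 in Control+NAC lungs, against 5.04, 5.21 and 5.57 in Control lungs, 2.33-fold higher (1.22 ± 0.30, adjusted p = 0.008). Kif11 stood at 7.36, 7.22, 7.06 and 6.64 in Control+NAC lungs, against 6.08, 6.02 and 6.52 in Control lungs (0.86 ± 0.23, adjusted p = 0.013). The groups did not overlap for either gene.

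Both called S-phase genes were also without overlap. Pcna stood at 9.13, 9.09, 9.24 and 9.20 in Control+NAC lungs, against 8.37, 8.56 and 8.72 in Control lungs (0.61 ± 0.15, adjusted p = 0.0063). Mcm6 stood at 7.57, 7.19, 7.22 and 7.19 in Control+NAC lungs, against 6.60, 6.84 and 7.02 in Control lungs (0.47 ± 0.13, adjusted p = 0.018). The remaining called genes overlapped in replicate 4 of Control+NAC, which was the lowest of its group. Bub1b, of the spindle checkpoint, stood at 6.69, 6.40, 6.49 and 5.83 against 5.75, 5.94 and 5.73 in Control lungs (0.55 ± 0.17, adjusted p = 0.033). Tpx2 stood at 7.51, 7.07, 6.86 and 6.65 against 6.34, 6.31 and 6.67 in Control lungs (0.58 ± 0.19, adjusted p = 0.044). With code start as a random block Bub1b (adjusted p = 0.072) and Tpx2 (adjusted p = 0.071) were no longer called, which left 4 of 40, and neither was called in a fit on these groups only. Cdk1 was not called, at 8.08, 7.48, 7.53 and 7.32 in Control+NAC lungs, against 6.61, 6.75 and 7.01 in Control lungs (0.81 ± 0.29, adjusted p = 0.060). In all, 13 of 40 genes were higher with no overlap, against 15.4% of all genes.

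The count hung on single lungs: it was 0 without replicate 1 of Control, 2 without replicate 2 of Control and 3 without replicate 1 of Control+NAC. Leaving out each of the 7 lungs in turn, Ndc80 and Pcna stayed called in 6 of 7, Kif11 in 5, Mcm6 in 4, Tpx2 in 2 and Bub1b in 1, and their estimates all stayed positive. Beside the members, and where 13.5% of all genes were called, 7 of 43 further mitotic genes were higher and none lower, led by Mad2l1, of the spindle checkpoint (0.77 ± 0.16, adjusted p = 0.0025), and Smc2, a condensin core subunit (0.90 ± 0.22, adjusted p = 0.0082). Of 42 further replication genes 6 were higher and none lower, among them Dut, which clears dUTP (0.56 ± 0.16, adjusted p = 0.022), and of 17 checkpoint and repair genes 4 were higher and none lower, led by Brca2 (0.45 ± 0.11, adjusted p = 0.0065). Of 25 brakes 6 were higher and 3 lower. The Cdk inhibitor Cdkn1a was lower (-0.62 ± 0.12, adjusted p = 0.0013), whereas the Cdk inhibitor Cdkn2c (0.70 ± 0.14, adjusted p = 0.0018), Ccng1, a p53 target cyclin (0.86 ± 0.19, adjusted p = 0.0031), and the pocket protein Rbl1 (0.75 ± 0.17, adjusted p = 0.005) were higher. The means of 13 skeletal muscle markers ran between -0.43 and -0.22 in Control+NAC lungs and between -0.06 and 0.64 in Control lungs, and those of 16 lung markers between -0.11 and -0.04 and between 0.05 and 0.14; their part in the NAC difference was not tested.

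**Figure D3:**
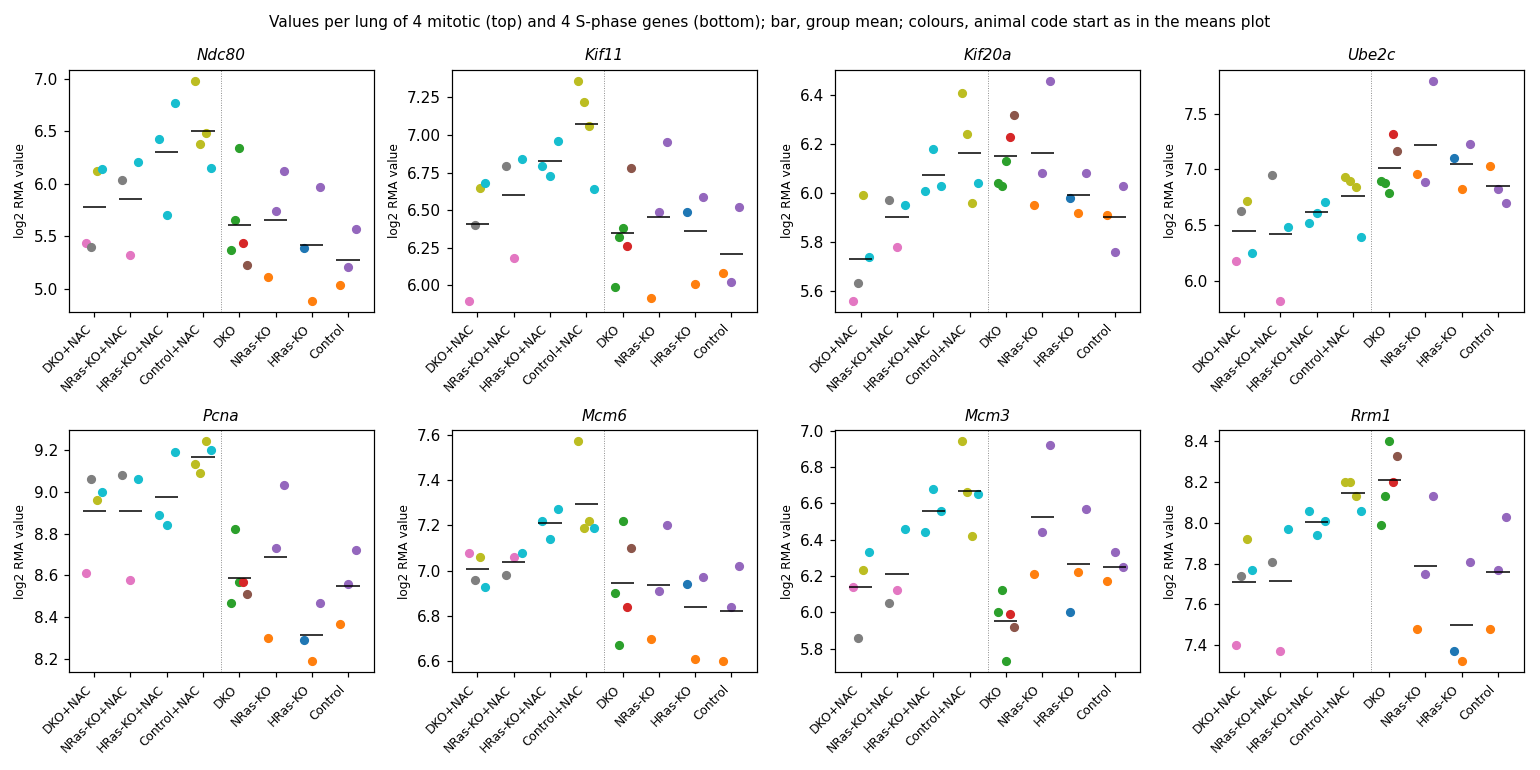
Log2 RMA value (y axis) per lung of Ndc80, Kif11, Kif20a and Ube2c (top, mitotic) and of Pcna, Mcm6, Mcm3 and Rrm1 (bottom, S phase), by group on the x axis; bars are group means and colours the code start. Rrm1 averages 8.21 in DKO lungs and 7.71 in DKO+NAC lungs, whereas Pcna averages 8.59 and 8.91 in the same groups.

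In HRas-KO+NAC against HRas-KO lungs 1 gene of 40 was called, where 11.8% of all genes were called and 6.73% called higher. Pcna stood at 8.89, 8.84 and 9.19 in HRas-KO+NAC lungs, against 8.29, 8.19 and 8.47 in HRas-KO lungs (0.65 ± 0.16, adjusted p = 0.0073), with no overlap. Rrm1 had the next smallest p, at 8.06, 7.94 and 8.01 in HRas-KO+NAC lungs, against 7.37, 7.32 and 7.81 in HRas-KO lungs (0.50 ± 0.17, adjusted p = 0.056). The median was 0.21 for mitotic and 0.25 for S-phase genes, beside 0.02 for all genes; with 1 lung left out the medians ran from 0.06, without replicate 2 of HRas-KO, to 0.26 and from 0.17 to 0.38. The count was 0 without replicate 3 of HRas-KO+NAC, 2 without its replicate 2 and 4 without replicate 3 of HRas-KO, and 3 with the replicate number as a block. Of the further lists, read against the same 11.8%, 1 of 43 mitotic, 5 of 42 replication, 5 of 17 checkpoint and 8 of 25 brake genes were higher, and 0, 1, 0 and 2 were lower. Dbf4, which activates the Cdc7 kinase at origins, had the smallest p of the replication genes (1.04 ± 0.22, adjusted p = 0.0029). The mean of the 16 lung markers ran between -0.10 and -0.05 in HRas-KO+NAC lungs and between 0.08 and 0.12 in HRas-KO lungs, and that of skeletal muscle markers between -0.24 and -0.12 and between -0.13 and -0.03. Skin markers ran between -0.23 and -0.09 in HRas-KO+NAC and between -0.09 and 0.09 in HRas-KO lungs, and heart markers between -0.12 and 0.67 and between 0.20 and 0.88; the part of these tissues was not tested.

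In NRas-KO+NAC against NRas-KO lungs 1 gene of 40 was called, lower, where 6.42% of all genes were called and 3.56% called lower. Ube2c stood at 6.95, 5.82 and 6.48 in NRas-KO+NAC lungs, against 6.96, 6.89 and 7.80 in NRas-KO lungs (-0.81 ± 0.23, adjusted p = 0.035), and the groups overlapped. It was not called without replicate 3 of NRas-KO, nor without replicate 2 or 3 of NRas-KO+NAC, nor in a fit on these groups only. Its estimate was -0.51 without replicate 3 of NRas-KO or replicate 2 of NRas-KO+NAC, and -1.07 without replicate 1 of NRas-KO+NAC. The median was -0.12 for mitotic and -0.19 for S-phase genes, beside 0.03 for all genes. Without the lungs high in skin markers, which leaves 1 NRas-KO lung, it was 0.25 and 0.06. The mitotic median turned to 0.08 without replicate 3 of NRas-KO alone or replicate 2 of NRas-KO+NAC alone, and was -0.31 without replicate 1 of NRas-KO; the S-phase median ran from -0.23 to -0.06. Among the further lists 1 of 43 mitotic genes was lower, 1 of 42 replication genes higher and 1 lower, and 1 of 25 brakes higher, where 6.42% of all genes were called; Orc2 was higher (0.49 ± 0.14, adjusted p = 0.034) and the maintenance methyltransferase Dnmt1 lower (-0.55 ± 0.14, adjusted p = 0.017).

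In DKO+NAC against DKO lungs Kif20a and Rrm1 were called lower and Mcm7 higher, 3 genes of 40, where 12.2% of all genes were called. Kif20a stood at 5.56, 5.63, 5.99 and 5.74 in DKO+NAC lungs, against 6.04, 6.03, 6.13, 6.23 and 6.32 in DKO lungs (-0.42 ± 0.11, adjusted p = 0.01). Rrm1 stood at 7.40, 7.74, 7.92 and 7.77 in DKO+NAC lungs, against 7.99, 8.13, 8.40, 8.20 and 8.33 in DKO lungs (-0.50 ± 0.14, adjusted p = 0.018). Mcm7 stood at 6.33, 6.34, 6.40 and 6.43 in DKO+NAC lungs, against 6.11, 6.09, 5.89, 6.19 and 6.19 in DKO lungs (0.28 ± 0.09, adjusted p = 0.049). Kif20a, Rrm1 and Mcm7 did not overlap between groups, but the share of all genes without overlap is not given here. Mcm7 was not called with code start as a random block (adjusted p = 0.082), with array weights, after array-median centring, or in a fit on these groups only. Without replicate 4 of DKO+NAC, the lung with the highest Nras of its group, Kif20a (-0.43) and Rrm1 (-0.53) were still called. Leaving out each of the 9 lungs in turn, Kif20a stayed called in 9 of 9, Rrm1 in all but the one without replicate 1 of DKO+NAC, and Mcm7 only in the one without replicate 4 of DKO; without the lungs high in skeletal muscle markers, which include replicates 1 and 5 of DKO, Rrm1 alone passed. The median was -0.12 for mitotic and 0.00 for S-phase genes, beside 0.02 for all genes, and with 1 lung left out it ran from -0.18 to 0.00 and from -0.08 to 0.10.

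Where 12.2% of all genes were called, 3 of 43 further mitotic genes were lower and none higher, among them Cit, a kinase of cytokinesis (-0.42 ± 0.09, adjusted p = 0.003), and Ncaph, of condensin (-0.80 ± 0.22, adjusted p = 0.018). Of 42 replication genes 2 were lower and none higher, Prim2 (-0.42 ± 0.13, adjusted p = 0.037) and the chromatin assembly subunit Chaf1b (-0.53 ± 0.17, adjusted p = 0.041). Of 25 brakes 4 were higher and 3 lower, and Cdkn1a was lower at 10.41 in DKO+NAC lungs against 11.25 in DKO lungs (-0.84 ± 0.11, adjusted p = 2.5e-05). Ccnd1 was higher at 8.53 against 7.85 (0.68 ± 0.20, adjusted p = 0.023), as was Cdk6 (0.62 ± 0.13, adjusted p = 0.0018). The erythroid marker mean ran between -0.10 and 0.06 in DKO+NAC lungs and between 0.18 and 0.74 in DKO lungs, and the skeletal muscle marker mean between -0.37 and -0.21 in DKO+NAC lungs and between -0.15 and 1.28 in DKO lungs. The heart marker mean ran between -0.59 and -0.42 in DKO+NAC lungs and between -0.24 and 0.05 in DKO lungs; the part of these cells was not tested.

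**Figure D4:**
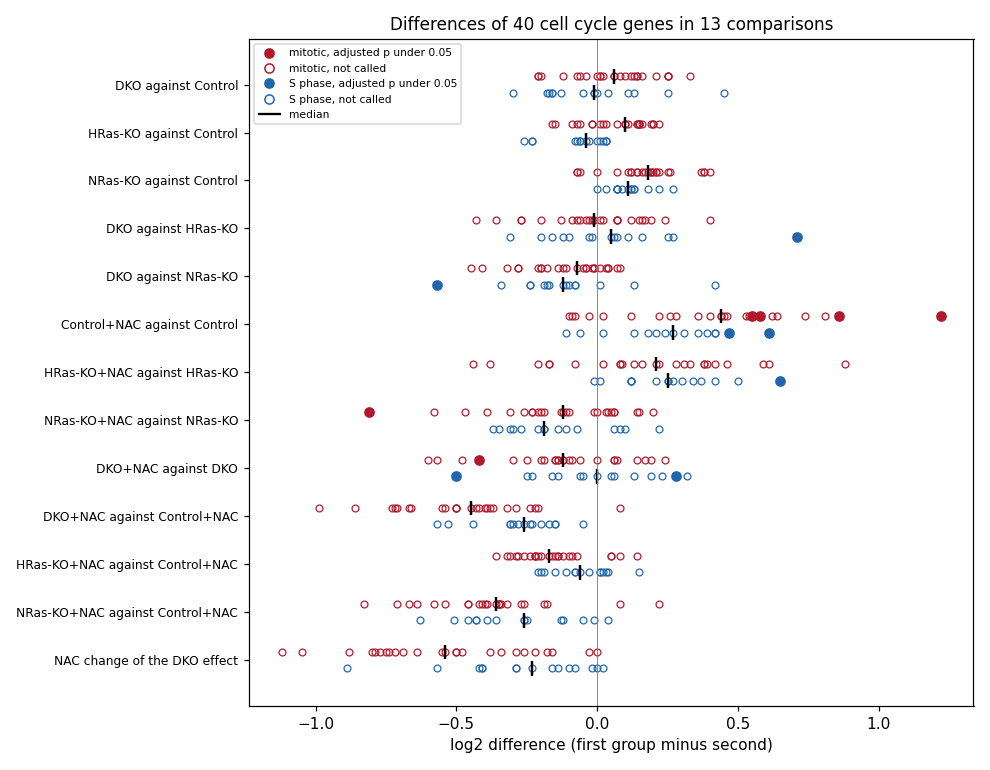
Log2 difference (x axis, first group minus second) of each of the 40 genes in the 13 comparisons (rows), mitotic genes in red above S-phase genes in blue; filled points have an adjusted p under 0.05 and black ticks are medians. The mitotic median is 0.44 for Control+NAC against Control and -0.45 for DKO+NAC against Control+NAC.

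Within the NAC arm, where some code starts hold several genotypes, no gene of any list was called. Nor was the targeted gene Nras, at 7.75 in DKO+NAC and 7.70 in NRas-KO+NAC against 8.33 in Control+NAC lungs. A gene that is not called here is thus not shown to be unchanged. In DKO+NAC against Control+NAC lungs 0% of all genes and 0 of the 40 passed limma's adjusted threshold, while 24 of 40 had an unadjusted p under 0.05, against 9.54% of all genes. Because the 40 genes move together across lungs, those 24 are not separate results. Estimates were negative for 39 of 40, with a median of -0.45 for mitotic and -0.26 for S-phase genes, beside 0.01 for all genes. With 1 lung left out the medians ran from -0.58 to -0.32 and from -0.30 to -0.16. Ccna2 stood at 5.79, 6.99, 7.30 and 6.97 in DKO+NAC lungs, against 7.89, 7.96, 7.71 and 7.46 in Control+NAC lungs (-0.99 ± 0.25, adjusted p = 0.22). Cenpa, the centromeric histone, stood at 5.99, 6.35, 6.55 and 6.57 against 6.99, 6.87, 6.99 and 6.62 in Control+NAC lungs (-0.50 ± 0.15, adjusted p = 0.27). Mcm3 stood at 6.14, 5.86, 6.23 and 6.33 against 6.94, 6.66, 6.42 and 6.65 in Control+NAC lungs (-0.53 ± 0.14, adjusted p = 0.23). The groups did not overlap for these 3, as for 7 of 40 genes in all, against 2.34% of all genes. Kif20a averaged 5.73 against 6.16, with overlap (-0.43 ± 0.11, adjusted p = 0.23). The heart marker mean ran between -0.59 and -0.42 in DKO+NAC lungs and between -0.34 and 0.09 in Control+NAC lungs. The erythroid marker mean ran between -0.10 and 0.06 and between -0.27 and -0.03 in the same groups. The part of these cells was not tested.

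The within-start values of that comparison did not run one way. Within start i the DKO+NAC lung was below the 3 Control+NAC lungs by a median difference of -0.34 for mitotic genes, with 24 of 25 lower, and of -0.16 for S-phase genes, with 13 of 15 lower. Within start j, with 1 lung each, the median difference was 0.06 for mitotic and 0.05 for S-phase genes. The DKO+NAC lung of start j was replicate 4, the one whose Nras value of 8.08 lay near the lowest Control lung. The lungs of starts g and h, at mitotic means of -0.61 and -0.24, had no Control+NAC lung beside them.

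The single knockouts under NAC were set against the same 4 Control+NAC lungs. In NRas-KO+NAC against Control+NAC lungs 0 of 40 and 0% of all genes were called, and 17 of 40 had an unadjusted p under 0.05, against 10.5% of all genes. The median was -0.36 for mitotic and -0.26 for S-phase genes, beside 0.00 for all genes, and 37 of 40 estimates were negative. Cdt1, which licenses origins, stood at 5.89, 5.84 and 6.11 in NRas-KO+NAC lungs, against 6.45, 6.42, 6.27 and 6.37 in Control+NAC lungs (-0.43 ± 0.13, adjusted p = 0.29). Cdk1 stood at 7.15, 6.10 and 7.07 in NRas-KO+NAC lungs, against 8.08, 7.48, 7.53 and 7.32 in Control+NAC lungs (-0.83 ± 0.29, adjusted p = 0.31). Neither overlapped. Mcm3 averaged 6.21 against 6.67 and Rrm2, the small subunit of ribonucleotide reductase, 5.73 against 6.36, both with overlap (adjusted p = 0.30 and 0.34). With code start as a fixed block the median was 0.01 for mitotic and -0.12 for S-phase genes, and within start j, with 1 lung each, it was 0.06 and -0.10.

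In HRas-KO+NAC against Control+NAC lungs 0 of 40 and 0% of all genes were called, and none of the 40 had an unadjusted p under 0.05, against 6.35% of all genes. The median was -0.17 for mitotic and -0.06 for S-phase genes, beside 0.00 for all genes; with 1 lung left out the medians ran from -0.28, without replicate 4 of Control+NAC, to -0.05, without its replicate 1, and from -0.11 to -0.01. Bub1b stood at 6.04, 5.81 and 6.27 in HRas-KO+NAC lungs, against 6.69, 6.40, 6.49 and 5.83 in Control+NAC lungs (-0.31 ± 0.17, adjusted p = 0.82). Aurkb, the kinase of the chromosomal passenger complex, averaged 6.23 against 6.52, Foxm1, the mitotic transcription factor, 5.84 against 6.10, and Bub1, a checkpoint kinase, 5.56 against 5.89, all with overlap. All 3 HRas-KO+NAC lungs came from start j, and within it the mitotic median was 0.15, with 21 of 25 genes higher than in the 1 Control+NAC lung.

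The change of the DKO effect by NAC was tested directly, as the DKO difference under NAC minus that without. None of the 40 genes passed, where 0.388% of all genes did, and 16 of 40 had an unadjusted p under 0.05, against 13% of all genes. The median was -0.54 for mitotic and -0.23 for S-phase genes, beside -0.01 for all genes. Rrm1 differed by -0.44 between DKO+NAC and Control+NAC lungs and by 0.45 between DKO and Control lungs, a change of -0.89 ± 0.21 (adjusted p = 0.054). Kif20a differed by -0.43 and 0.25 in the same comparisons, a change of -0.69 ± 0.16 (adjusted p = 0.054). Both were called without the dimmest 40% of genes and after array-median centring, and Rrm1 with the replicate block. Ccna2 changed by an estimate of -1.12 ± 0.36 (adjusted p = 0.16) and Ndc80 by -1.05 ± 0.40 (adjusted p = 0.24), neither called. Of the further lists, Prim2 (-0.89 ± 0.20, adjusted p = 0.048) and Lin54 (-0.61 ± 0.13, adjusted p = 0.039) passed, both in the negative direction.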

How the data were processed

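RNA of 1 lung per animal was labelled with biotin and hybridised to 1-colour microarrays, per the labels' protocols. The authors deposited log2 values, made with RMA in affy per the submitters' processing notes; no versions are named. The table holds 41345 rows for 28 arrays, and array medians run from 5.25 to 5.41. By the platform annotation 23521 rows have 1 gene symbol, 1814 several and 16010 none listed here. The brightest row per symbol gave 22180 genes. No further normalization was applied. Group means of 8 groups were fitted with limma 3.58.1 in R 4.3.3 (lmFit and eBayes, 20 residual degrees of freedom) for 13 comparisons, each adjusted over all genes by Benjamini-Hochberg; the fit was tested on simulated data. Each animal is a replicate, and groups follow the source labels. Replicate numbers did not pair animals (mean r of 0.021 over 37 same-numbered pairs of different groups).

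Values per array were given for called members, at most the 8 with the smallest p, or for the 4 with the smallest p where none was called, some of them as group means; up to 4 genes were named from each further list. The members, gene lists and tests were chosen with earlier results of these data known. Alternatives covered row choice, a filter on dim genes, centring, quantile normalization, trended and weighted fits, group-only fits, replicate and code start blocks, and leaving out each lung. Leaving out lungs high in skeletal muscle or skin markers (a marker mean over 0.5) was added after seeing the data. One gene is not reported here.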

Additional observations from a re-analysis of the deposited data

Results flagged for a closer look

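Each member was checked in the groups of 4 or 5 lungs for a single lung set far apart from the rest, by Dixon's ratio. Of 120 such checks 8 stood out, where chance gives about 1 in 20. In DKO+NAC lungs Bub1b was low in replicate 1 at 5.57, with the others between 6.03 and 6.11. In Control+NAC lungs replicate 1 was high for Ccnb2 at 8.12, with the others between 7.19 and 7.33, and for Mcm6 at 7.57, with the others between 7.19 and 7.22. Replicate 4 of the same group was low for Ube2c at 6.39, with the others between 6.84 and 6.93, and for E2f1, the E2F factor of S-phase entry, at 5.94, with the others between 6.17 and 6.19. In DKO lungs replicate 2 was high for Pcna at 8.82, with the others between 8.47 and 8.57, and for E2f1 at 6.11, with the others between 5.82 and 5.89. Replicate 4 of DKO was high for Ccnb2 at 7.69, with the others between 7.30 and 7.40.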

How the results depend on the processing

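No called gene changed sign under any alternative. Of the counts of genes called, that of HRas-KO+NAC against HRas-KO (1) became 2 without the dimmest 40% of genes and with array-median centring, 5 with array weights, and 4 in the fit on those groups only. The NAC change of the DKO effect (0) became 2 without the dim genes and with centring. DKO against HRas-KO (1) became 2 with array weights. DKO against NRas-KO (1) and NRas-KO+NAC against NRas-KO (1) became 0 in the fit on their groups only. Without the lungs high in skeletal muscle markers, DKO against NRas-KO became 0 and DKO+NAC against DKO (3) became 1. Without the lungs high in skin markers, which leaves 1 NRas-KO lung, the S-phase median was -0.09 for NRas-KO against Control. It was 0.06 for DKO against NRas-KO and 0.06 for NRas-KO+NAC against NRas-KO. The mitotic median was -0.16 for NRas-KO against Control and 0.25 for NRas-KO+NAC against NRas-KO. Code start as a fixed block could be fitted for 5 comparisons; it gave medians of -0.12 (S phase) and 0.01 (mitotic) for NRas-KO+NAC against Control+NAC. The causes were not tested.

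The replicate number was fitted as a block although it did not pair the animals: HRas-KO+NAC against HRas-KO then had 3 genes called and the NAC change of the DKO effect 1, and it changed no other count by more than 1.5 times.

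With each lung left out in turn, the count ranged from 0 to 8 for Control+NAC against Control, 0 to 1 for DKO against HRas-KO, 0 to 2 for DKO against NRas-KO, 0 to 4 for HRas-KO+NAC against HRas-KO, 0 to 1 for NRas-KO+NAC against NRas-KO, and 0 to 1 for the NAC change of the DKO effect. With code start as a random block (correlation 0.12) Bub1b and Tpx2 in Control+NAC and Mcm7 in DKO+NAC were no longer called. Depth is set by the number of lungs, 3 to 5 a group; the class mean of a lung varied within groups with a pooled SD of 0.24 (mitotic) and 0.15 (S phase).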
